A study of Mus musculus with 24 samples.

Results

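The genes described here are 47 members of the pathways that find, cut out, bypass or recombine across the lesions that platinum drugs leave in DNA. They were taken as the rows of the deposited count table whose symbol stood in a list of Fanconi anaemia, homologous recombination, nucleotide excision, translesion synthesis and damage checkpoint genes, and the rule itself uses no measured value, although the list was drawn up with earlier results of these data known. All 47 symbols were among the 25229 genes of the table, and 45 of them passed the filter on low counts that left 12941 genes for testing.

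The cells were ID8 P53 KO cells, a mouse ovarian surface epithelial cancer line in which the tumour suppressor gene Trp53 had been knocked out, according to the labels of all groups. Trp53 transcript was still counted in every library, at 18.7 to 42.9 CPM (medians of 30.8 with DMSO, 20.2 with AU-15330, 39.9 with cisplatin and 29.5 with both drugs). Poly(A) RNA was sequenced from 24 libraries in 4 groups of 6, all collected after 6 days. The first group received the solvent DMSO, the second the SMARCA4 degrader AU-15330 (AU15330 in the labels) at 2.5 µM, the third cisplatin at 750 nM, and the fourth both drugs at those concentrations, all as the labels give them. The study's methods give another cisplatin concentration for work with this line, so the dose behind these libraries rests on the labels alone. AU-15330 is a PROTAC, a molecule that brings the SWI/SNF chromatin remodelling ATPases SMARCA4 and SMARCA2 to a ubiquitin ligase. Its effects here are therefore not those of SMARCA4 loss alone. Since it removes protein, mRNA levels of its targets do not check the labels, and the deleted part of Trp53 was not given in the sources used here. One cell line limits the findings to that line, and nothing in the labels says whether replicates were separate cultures, so p-values measure the spread between these libraries, which may be technical.

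Libraries held 17592588 to 25260009 counts after the 2 sequencing lanes of each were summed. At that depth 3 counts corresponded to 0.120 to 0.186 CPM, the usual counts-per-million scale. CPM values used TMM factors, and below they are given as the median of 6 libraries with the lowest and highest in parentheses. Changes are log2 fold changes ± standard error, with p-values from edgeR's quasi-likelihood test adjusted by the Benjamini-Hochberg method over all 12941 genes. A gene was called when its adjusted p was below 0.05. Of 11 markers of the line, Krt8, Krt18, Wt1 and Msln had median counts of 2538 or more in every group, although with AU-15330 Krt18 stood at 2711 and Msln at 2538 against 13194.5 and 10122 with DMSO. Epcam and Pax8 reached at most 2 and 15 counts in a library. Krt19 had a median of 34646.5 counts with DMSO and 30775 with cisplatin but 123.5 with AU-15330 and 258 with both drugs, and Upk3b, Krt7, Lrrn4 and Cdh1 were also lower with AU-15330 than without it. The 8 leukocyte markers examined reached at most 17 counts. Of 4 endothelial markers Pecam1 reached 274 and the others at most 9, and of 6 fibroblast markers Col1a1 reached 12892, Dcn 4976, Col3a1 2130 and the others at most 96. The part of these markers' changes in the results below was not tested.

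Cisplatin binds neighbouring purines and forms adducts within 1 strand and, less often, crosslinks between strands. Nucleotide excision repair cuts out the former. Interstrand crosslinks are handled by the Fanconi anaemia pathway, in which a core ubiquitin ligase marks the FANCD2-FANCI clamp, nucleases unhook the lesion, translesion polymerases copy past it, and homologous recombination restores the broken strand, while the ATM and ATR kinases signal damage to the cell cycle. Many recombination and Fanconi genes are known E2F targets transcribed around S phase, whereas most excision repair genes are transcribed throughout the cycle.

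All genes of the FANCD2-FANCI cycle and most of homologous recombination were called higher with each drug than with DMSO, and most genes of nucleotide excision repair were not. With cisplatin 4 of 4, 10 of 13 and 2 of 11 genes of these roles were called higher, and with AU-15330 4 of 4, 9 of 13 and 2 of 11. Each drug also called 1 recombination gene lower, Rad51d with cisplatin and Rad51b with AU-15330. Against DMSO, cisplatin called 25 of the 45 tested members higher and 8 lower, where 26% of all tested genes were called higher and 25.7% lower (51.7% either way). The members' median log2 fold change was 0.26, and that of all tested genes was -0.00. AU-15330 against DMSO called 23 members higher and 10 lower (background 36.2% and 37.2%, together 73.4%), with a member median of 0.30. The 2 comparisons share their DMSO libraries. Adding AU-15330 to cisplatin called 28 members higher and 5 lower (background 35.4% and 32.7%, together 68.1%) with a median of 0.30, and adding cisplatin to AU-15330 called 22 higher and 6 lower (background 22.2% and 19.5%, together 41.7%) with a median of 0.18. Scaling to total counts moved the median of all genes for AU-15330 to 0.13 and the members' split to 30 higher and 6 lower. Over all genes that scaling gave 5618 higher and 3973 lower with AU-15330 in place of 4681 and 4816, 3977 and 2529 with cisplatin in place of 3360 and 3329, and 5111 and 3877 for both drugs against cisplatin in place of 4579 and 4234.

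**Figure D1:**
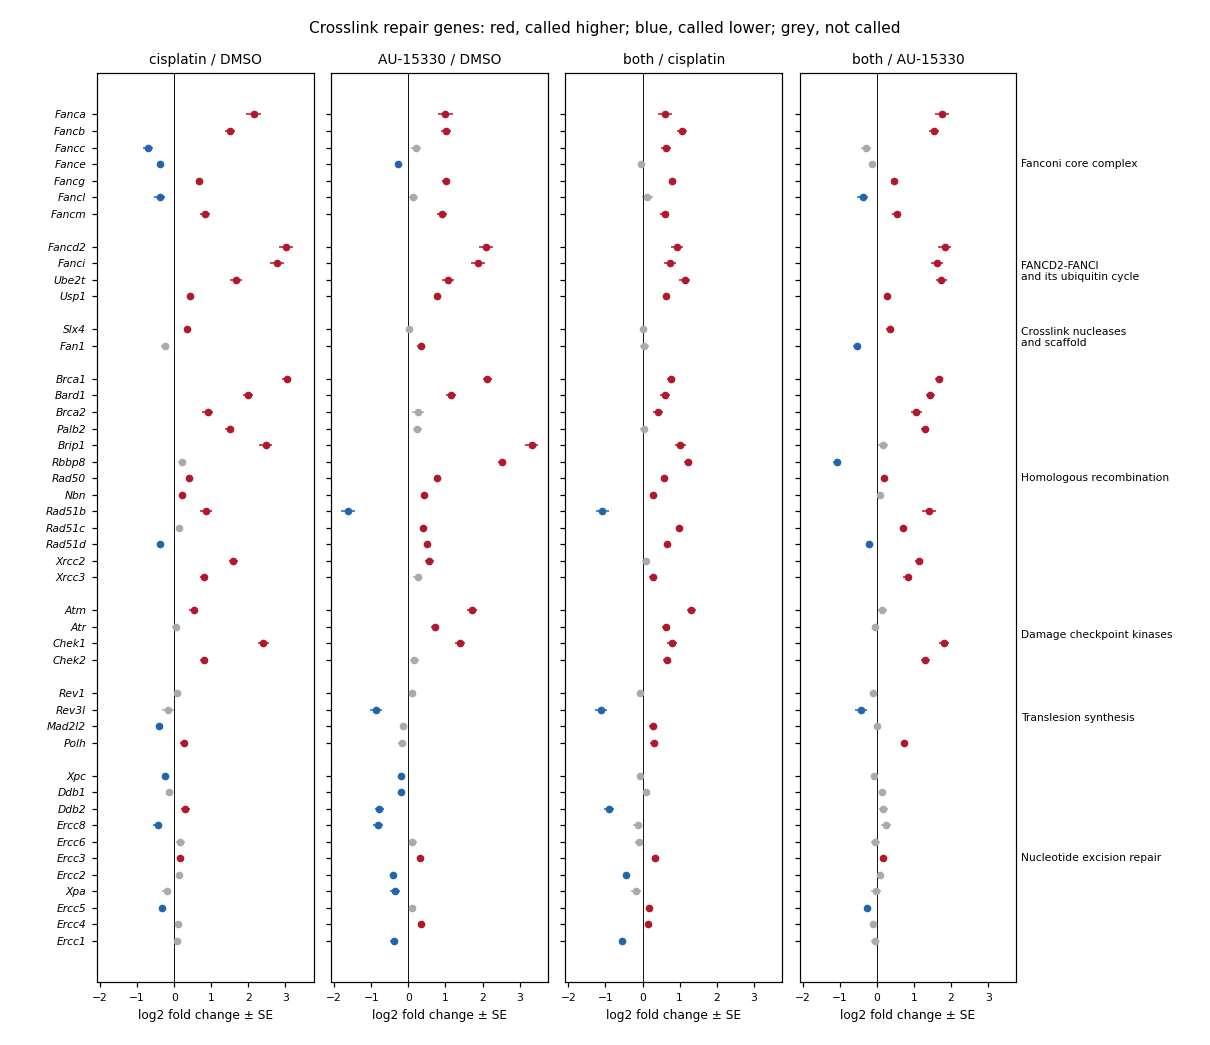
Log2 fold changes (points, x axis) with standard errors (bars) of the 45 tested members, grouped by role, in 4 comparisons. Red points were called higher, blue lower and grey not called at an adjusted p of 0.05. The 4 genes of the FANCD2-FANCI cycle are red in every panel, and the 11 excision repair genes lie near 0 or on either side of it.

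Groups separated fully for many of these genes. All 6 cisplatin libraries lay above all 6 DMSO libraries for 16 members and below them for 4 (14.2% and 9.78% of all tested genes). For AU-15330 against DMSO the counts were 20 and 5 (24.5% and 25.4%). For both drugs against cisplatin they were 23 and 5 (24.7% and 25.5%), and for both drugs against AU-15330 19 and 3 (16% and 13.6%). The group median was highest with both drugs and lowest with DMSO for 21 of the 45 members, or 46.7%, and for 13.1% of all tested genes.

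Proliferation genes moved in the same comparisons. All 29 genes of a proliferation and S phase list were called higher with cisplatin (median log2 fold change 1.93), 26 with AU-15330 (1.06), 18 with both drugs against cisplatin (0.53) and 28 with both drugs against AU-15330 (1.51), and none was called lower in these comparisons. The shares called higher were 100%, 89.7%, 62.1% and 96.6%, against 26%, 36.2%, 35.4% and 22.2% of all tested genes. Mki67, which marks cycling cells, had a median of 40.05 CPM (30.2 to 83.2) with DMSO, 81.4 (65.5 to 163) with AU-15330, 338 (249.9 to 375) with cisplatin and 304 (272 to 379) with both drugs. Its DMSO libraries lay below those of both cisplatin groups and overlapped those of AU-15330. The study reports that cisplatin made ID8 cells lacking Trp53 senescent, judged by reduced proliferation, a senescence stain and secreted factors. The cisplatin concentration of that work may differ from that in these labels. How the rise of these transcripts relates to that report was not tested. In these bulk libraries a larger share of cycling cells and more transcript per cell cannot be told apart, and the part that proliferation had in the members' changes was not tested.

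Replicates 1 to 3 stood above replicates 4 to 6 for some members without cisplatin. Fancd2 stood at 21.6, 13.9 and 12.5 CPM in AU-15330 replicates 1 to 3 and at 9.06, 10.6 and 8.92 in replicates 4 to 6, and Fanca at 20.7, 14.8 and 12.4 against 7.63, 8.74 and 8.30. Mki67 was also higher in the first 3, at 163, 122 and 88.0 CPM against 74.8, 72.2 and 65.5. The DMSO libraries showed the same order, with Fancd2 at 2.85, 3.85 and 3.96 CPM against 2.28, 2.37 and 2.56, Fanca at 6.68, 6.28 and 9.02 against 3.85, 5.92 and 4.84, and Mki67 at 42.2, 83.2 and 75.3 against 34.3, 30.2 and 37.8. Rbbp8 with AU-15330 went the other way, at 418, 319.8 and 399 CPM against 492, 489 and 482. The labels give no batch for these replicates. Without AU-15330 replicate 1 the AU-15330 changes of Fancd2 and Fanca were 1.89 and 0.77, and both stayed called.

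The Fanconi core complex is the ubiquitin ligase assembled by FANCA, FANCB, FANCC, FANCE, FANCF, FANCG and FANCL, with FANCM as the translocase that loads it onto DNA. Of the 7 tested genes, cisplatin called 4 higher and 3 lower (57.1% and 42.9%, against 26% and 25.7% of all tested genes), AU-15330 called 4 higher and 1 lower (57.1% and 14.3%, against 36.2% and 37.2%), and both drugs against cisplatin called 5 higher (71.4%, against 35.4%). Fanca (chr8:123268300-123318576, GRCm38) had a median of 6.10 CPM (3.85 to 9.02) with DMSO, 10.6 (7.63 to 20.7) with AU-15330, 26.5 (22.7 to 32.2) with cisplatin and 41.2 (38.3 to 44.6) with both drugs. Its cisplatin and combination libraries lay above those of DMSO and AU-15330 and apart from each other, whereas DMSO and AU-15330 overlapped. The change was 2.15 ± 0.20 (adjusted p = 1.83e-09) with cisplatin, 1.00 ± 0.20 (adjusted p = 9.37e-05) with AU-15330 and 0.60 ± 0.18 (adjusted p = 0.00505) for both drugs against cisplatin.

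Fancb, which sits with FANCL in the catalytic module, had a median of 2.42 CPM (1.55 to 2.73) with DMSO, 4.43 (3.99 to 5.54) with AU-15330, 6.45 (5.06 to 7.75) with cisplatin and 13.9 (11.9 to 14.4) with both drugs. Each drug group lay above DMSO without overlap, and the combination lay above every other library. The change was 1.497 ± 0.14 (adjusted p = 1.6e-09) with cisplatin, 1.017 ± 0.14 (adjusted p = 4.38e-07) with AU-15330 and 1.06 ± 0.12 (adjusted p = 3.38e-08) for both drugs against cisplatin. Fancg and Fancm were also called higher in these comparisons, with cisplatin changes of 0.68 and 0.84, AU-15330 changes of 1.00 and 0.90, and changes on adding AU-15330 to cisplatin of 0.80 and 0.59.

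Core subunits did not move as a block. Fancc had a median of 6.91 CPM (5.86 to 7.76) with DMSO, 8.07 (5.73 to 9.29) with AU-15330, 4.28 (3.10 to 4.84) with cisplatin and 6.37 (5.32 to 8.10) with both drugs. The 6 cisplatin libraries lay below all DMSO libraries, and the combination lay above cisplatin. The change was -0.71 ± 0.13 (adjusted p = 7.18e-05) with cisplatin and 0.62 ± 0.13 (adjusted p = 0.000179) when AU-15330 was added to it, and with AU-15330 alone it was 0.20 ± 0.13 (adjusted p = 0.165). Fance, the subunit that recruits FANCD2, was called lower with cisplatin at -0.37 ± 0.08 (adjusted p = 0.000399) and with AU-15330 at -0.27 ± 0.08 (adjusted p = 0.00421), with overlapping groups, and the AU-15330 call was lost under total-count scaling. Fancl, the catalytic E3 subunit, was at -0.39 ± 0.14 (adjusted p = 0.0219) with cisplatin, a call lost without DMSO replicate 1 (-0.26), cisplatin replicate 4 (-0.35) or cisplatin replicate 6 (-0.31), and also under total-count scaling (-0.31) or with only the 2 groups fitted (-0.39).

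Fancf could not be tested. It had 0 counts in the 18 libraries without the combination and 3 counts in all in the combination group, in 1 library. Atrip, the partner of the ATR kinase, had 0 counts in all 24. Expression below the floor of 3 counts a library is not detectable at this depth. In the GENCODE M21 annotation Atrip shares 16.04% of its exon bases with Trex1 on the same strand and Fancf shares 14.96% with Gas2 on the other strand. Whether overlapping reads were dropped in counting is not given in the sources used here. Fancc, Rev1 and Ercc2 share 18.6%, 26.6% and 42.4% of their exon bases with genes on the other strand and were counted in every library. The cause of the 0 counts was not tested.

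FANCD2 and FANCI form the clamp that the core complex marks, UBE2T is the E2 enzyme that attaches the ubiquitin, and USP1 takes it off again. All 4 genes were called higher in the 4 comparisons between groups, with medians of 2.22 with cisplatin, 1.47 with AU-15330 and 0.83 on adding AU-15330 to cisplatin. Fancd2 (chr6:113531682-113597017) had a median of 2.701 CPM (2.28 to 3.96) with DMSO, 11.6 (8.92 to 21.6) with AU-15330, 24.3 (17.2 to 28.3) with cisplatin and 45.2 (42.9 to 47.9) with both drugs. The medians rose in the order DMSO, AU-15330, cisplatin and the combination, and neighbouring groups were separate except that AU-15330 replicate 1 exceeded the lowest cisplatin library. Fancd2 changed by 3.01 ± 0.19 (adjusted p = 1.07e-12) with cisplatin, by 2.10 ± 0.19 (adjusted p = 2.24e-10) with AU-15330 and by 0.92 ± 0.16 (adjusted p = 1.73e-05) for the combination against cisplatin.

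Fanci (chr7:79391929-79450264) had a median of 3.02 CPM (2.14 to 4.38) with DMSO, 9.55 (8.15 to 16.97) with AU-15330, 20.5 (16.6 to 26.97) with cisplatin and 35.02 (31.6 to 36.8) with both drugs. The order was that of Fancd2, and again only AU-15330 replicate 1, at 16.97 CPM, exceeded the lowest cisplatin library. Its changes were 2.77 ± 0.18 (adjusted p = 1.58e-12) with cisplatin and 1.88 ± 0.18 (adjusted p = 6.35e-10) with AU-15330. In GENCODE M21, 15.95% of Fanci exon bases lie opposite Polg, and Polg reads cannot be told apart from Fanci reads if counting ignored strand, a setting not given in the sources used here. The Fanci promoter is shown because it carries, at bases +19 to +25 from the start, the short E2F site described further on. It covers 250 bases before to 50 bases after the RefSeq start at chr7:79392088-79392387 (GRCm38.p6, plus strand), and capitals mark the E2F core.
Fanci promoter: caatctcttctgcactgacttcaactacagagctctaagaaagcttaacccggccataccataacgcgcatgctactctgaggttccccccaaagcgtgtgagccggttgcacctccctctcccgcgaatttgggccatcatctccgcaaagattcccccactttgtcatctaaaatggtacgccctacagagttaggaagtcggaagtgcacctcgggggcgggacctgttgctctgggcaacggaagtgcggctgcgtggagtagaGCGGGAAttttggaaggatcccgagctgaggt

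Ube2t had a median of 4.33 CPM (3.07 to 5.45) with DMSO, 7.99 (6.99 to 14.2) with AU-15330, 13.96 (10.99 to 17.1) with cisplatin and 29.7 (26.9 to 34.9) with both drugs, and its combination libraries lay above every other library. The change on adding AU-15330 to cisplatin was 1.14 ± 0.15 (adjusted p = 2.19e-07), the largest of the 4 genes in that comparison. Usp1 was the most abundant of the 4 per exon length, at a median of 12.2 CPM per kb with DMSO against 0.34 for Fancd2, 0.522 for Fanci and 0.895 for Ube2t. It had a median of 45.7 CPM (35.8 to 49.1) with DMSO, 73.4 (69.6 to 95.9) with AU-15330, 57.9 (52.6 to 75.1) with cisplatin and 92.3 (87.9 to 99.4) with both drugs. Its changes were smaller, 0.43 ± 0.09 (adjusted p = 0.000218) with cisplatin and 0.78 ± 0.09 (adjusted p = 1.11e-08) with AU-15330, and both groups lay above DMSO.

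SLX4 is the scaffold for the nucleases that unhook crosslinks, and FAN1 is a nuclease recruited by ubiquitinated FANCD2. Slx4 had a median of 37.1 CPM (26.4 to 39.2) with DMSO, 35.3 (32.6 to 38.9) with AU-15330, 47.6 (36.4 to 49.8) with cisplatin and 46.8 (38.3 to 50.96) with both drugs, with overlapping ranges. It was called higher with cisplatin at 0.36 ± 0.10 (adjusted p = 0.00353), and its change with AU-15330 was 0.03 ± 0.10 (adjusted p = 0.791). Fan1 had a median of 12.01 CPM (10.96 to 12.98) with DMSO, 15.3 (11.9 to 16.8) with AU-15330, 10.6 (7.34 to 11.7) with cisplatin and 10.6 (8.003 to 11.9) with both drugs. It was called higher with AU-15330 at 0.34 ± 0.11 (adjusted p = 0.00814) and lower on adding cisplatin to AU-15330 at -0.54 ± 0.11 (adjusted p = 0.000381), where the groups did not overlap.

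**Figure D2:**
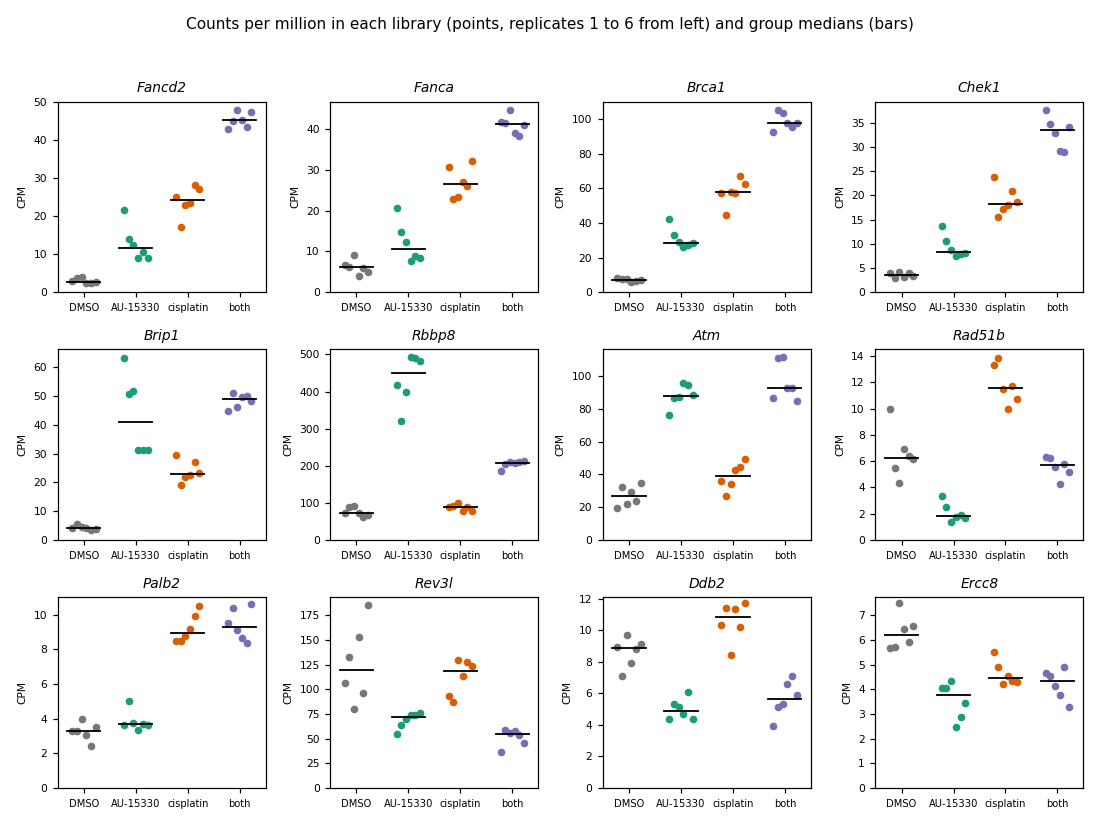
CPM (y axis, linear from 0) of 12 members in each of the 24 libraries, by treatment group. Points are libraries in the order of replicates 1 to 6 and bars are group medians. Fancd2, Brca1 and Chek1 step up from DMSO through AU-15330 and cisplatin to both drugs, Brip1 and Rbbp8 are raised with AU-15330, and Rad51b, Rev3l and Ddb2 are lower with AU-15330 than with DMSO.

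Homologous recombination was the largest role, with 13 tested genes. Cisplatin called 10 higher and 1 lower (76.9% and 7.69%, against 26% and 25.7% of all tested genes), AU-15330 called 9 higher and 1 lower (69.2% and 7.69%, against 36.2% and 37.2%), and AU-15330 on top of cisplatin called 10 higher and 1 lower (76.9% and 7.69%, against 35.4% and 32.7%). BRCA1 and BARD1 form the ubiquitin ligase that directs breaks to recombination. Brca1 (chr11:101488764-101551955) had a median of 7.24 CPM (5.598 to 8.29) with DMSO, 28.6 (26.2 to 42.4) with AU-15330, 57.8 (44.8 to 66.9) with cisplatin and 97.8 (92.4 to 105) with both drugs. The 4 groups were fully separate. Its cisplatin change, 3.03 ± 0.12 (adjusted p = 4.37e-17), or 8.16-fold, was the largest estimate of any member, within its error of that of Fancd2. It changed by 2.13 ± 0.11 (adjusted p = 5.05e-15) with AU-15330 and by 0.77 ± 0.10 (adjusted p = 2.53e-07) for the combination against cisplatin. Bard1 followed it, with a median of 5.02 CPM (4.39 to 8.30) with DMSO, 12.2 (10.1 to 17.02) with AU-15330, 23.5 (18.1 to 25.1) with cisplatin and 35.1 (32.9 to 36.1) with both drugs, and its change was 2.00 ± 0.14 (adjusted p = 4.17e-12) with cisplatin and 1.16 ± 0.14 (adjusted p = 2.89e-08) with AU-15330.

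BRIP1 is a helicase that binds BRCA1 and is itself a Fanconi protein. Brip1 (chr11:86058138-86201193) had a median of 4.31 CPM (3.55 to 5.41) with DMSO, 41.03 (31.1 to 63.2) with AU-15330, 22.9 (18.96 to 29.6) with cisplatin and 49.03 (44.7 to 51.1) with both drugs. Each drug group lay above DMSO without overlap, the AU-15330 libraries lay above the cisplatin libraries, and the combination overlapped AU-15330. The AU-15330 change, 3.32 ± 0.17 (adjusted p = 2.03e-15), or 10.01-fold, was the largest of any member, and the cisplatin change was 2.47 ± 0.17 (adjusted p = 4.58e-12). Within AU-15330, replicates 1 to 3 stood at 63.2, 50.7 and 51.6 CPM and replicates 4 to 6 at 31.4, 31.3 and 31.1. The promoters of Brca1 and Brip1 are shown because these genes had the largest changes with cisplatin and with AU-15330 and because each carries the E2F core, at bases +22 to +28 from the start in Brca1 and at bases -4 to +3 from the start in Brip1. Brca1 lies at chr11:101551906-101552205 and Brip1 at chr11:86201144-86201443, both on the minus strand of GRCm38.p6, and capitals mark the core.
Brca1 promoter: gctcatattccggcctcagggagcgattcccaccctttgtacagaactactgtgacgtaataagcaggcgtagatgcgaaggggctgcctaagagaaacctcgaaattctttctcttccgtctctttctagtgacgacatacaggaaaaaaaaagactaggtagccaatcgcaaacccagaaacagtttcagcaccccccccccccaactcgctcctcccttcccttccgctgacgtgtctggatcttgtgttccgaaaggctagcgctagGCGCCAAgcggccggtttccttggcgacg
Brip1 promoter: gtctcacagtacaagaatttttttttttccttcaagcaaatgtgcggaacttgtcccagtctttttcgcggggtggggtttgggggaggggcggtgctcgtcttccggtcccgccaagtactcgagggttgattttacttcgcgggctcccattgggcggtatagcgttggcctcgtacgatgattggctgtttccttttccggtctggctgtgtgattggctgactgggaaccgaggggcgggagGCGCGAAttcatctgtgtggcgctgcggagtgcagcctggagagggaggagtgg

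RBBP8 (CtIP) starts the resection of broken ends. Rbbp8 had a median of 72.5 CPM (62.3 to 91.2) with DMSO, 450.0 (319.8 to 492) with AU-15330, 89.2 (78.96 to 99.2) with cisplatin and 208 (186 to 214) with both drugs. Every AU-15330 library lay above every other library, the combination lay between AU-15330 and cisplatin without overlap, and cisplatin overlapped DMSO. Its change was 2.51 ± 0.10 (adjusted p = 2.77e-17) with AU-15330, 0.21 ± 0.10 (adjusted p = 0.0768) with cisplatin and -1.08 ± 0.10 (adjusted p = 4.65e-09) when cisplatin was added to AU-15330. RAD50 and NBN belong to the complex that holds broken ends. Both were called higher with AU-15330, Rad50 at 0.78 ± 0.07 (adjusted p = 2.31e-10) and Nbn at 0.42 ± 0.07 (adjusted p = 2e-05), and less with cisplatin at 0.40 and 0.21. The Nbn call with cisplatin was lost without cisplatin replicate 1 (0.14), without replicate 1 of every group (0.12), without the filter on low counts (0.19) or with only the 2 groups fitted (0.21).

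PALB2 bridges BRCA1 to BRCA2, and both are needed for strand exchange in recombination. Palb2 had a median of 3.30 CPM (2.42 to 3.96) with DMSO, 3.67 (3.34 to 5.02) with AU-15330, 8.97 (8.46 to 10.5) with cisplatin and 9.31 (8.39 to 10.6) with both drugs. All 12 libraries with cisplatin lay above all 12 without it. Palb2 changed by 1.499 ± 0.12 (adjusted p = 5.54e-11) with cisplatin, and its change was 0.24 ± 0.12 (adjusted p = 0.0765) with AU-15330 and 0.03 ± 0.11 (adjusted p = 0.803) for the combination against cisplatin. Brca2 had a median of 13.6 CPM (9.69 to 21.7) with DMSO, 16.6 (14.6 to 20.8) with AU-15330, 28.8 (18.8 to 29.9) with cisplatin and 35.2 (27.9 to 42.01) with both drugs. It was called higher with cisplatin at 0.91 ± 0.15 (adjusted p = 1.93e-05), with overlapping ranges, and its change with AU-15330 was 0.26 ± 0.15 (adjusted p = 0.13).

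Rad51b, Rad51c, Rad51d, Xrcc2 and Xrcc3 encode subunits of small complexes that assist recombination, and they went separate ways. Rad51b (chr12:79297282-79814690) had a median of 6.25 CPM (4.34 to 9.96) with DMSO, 1.83 (1.40 to 3.38) with AU-15330, 11.6 (9.96 to 13.9) with cisplatin and 5.68 (4.27 to 6.32) with both drugs. The AU-15330 libraries lay below every other library, and the combination lay below cisplatin and overlapped DMSO. Rad51b was called lower with AU-15330 at -1.63 ± 0.19 (adjusted p = 2.73e-08) and for both drugs against cisplatin at -1.09 ± 0.17 (adjusted p = 4.23e-06), and higher with cisplatin at 0.86 ± 0.17 (adjusted p = 0.000165). Rad51d was called the other way, at 0.50 ± 0.07 (adjusted p = 7e-07) with AU-15330 and -0.38 ± 0.07 (adjusted p = 0.000104) with cisplatin, and it had a median of 29.95 CPM (28.8 to 32.3) with DMSO, 42.8 (36.9 to 47.2) with AU-15330, 24.3 (19.3 to 25.8) with cisplatin and 36.9 (33.8 to 39.3) with both drugs.

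Rad51c had a median of 8.22 CPM (7.79 to 9.94) with DMSO, 11.3 (10.7 to 11.8) with AU-15330, 9.38 (7.91 to 10.3) with cisplatin and 18.7 (16.3 to 19.2) with both drugs, and its combination libraries stood above all others. Its change was 0.40 ± 0.08 (adjusted p = 6.17e-05) with AU-15330, 0.12 ± 0.08 (adjusted p = 0.215) with cisplatin and 0.98 ± 0.08 (adjusted p = 1.86e-11) for both against cisplatin. Xrcc2 and Xrcc3 were called higher with cisplatin, at 1.59 ± 0.12 (adjusted p = 2.13e-11) and 0.81 ± 0.11 (adjusted p = 1.86e-06). With AU-15330 Xrcc2 was called at 0.56 ± 0.12 (adjusted p = 0.000182), and Xrcc3 was at 0.25 ± 0.12 (adjusted p = 0.0573). The 6 cisplatin libraries lay above the 6 DMSO libraries for both genes.

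ATM responds to broken ends and ATR to exposed single strands, and they act through the kinases CHEK2 and CHEK1. Atm (chr9:53439149-53536740) had a median of 26.7 CPM (19.5 to 34.9) with DMSO, 87.7 (76.4 to 95.9) with AU-15330, 39.2 (26.9 to 49.1) with cisplatin and 92.8 (84.7 to 111) with both drugs. The libraries with AU-15330, with or without cisplatin, lay above all libraries without it. Atm changed by 1.71 ± 0.14 (adjusted p = 1.5e-11) with AU-15330 and by 0.52 ± 0.13 (adjusted p = 0.00196) with cisplatin, where the groups overlapped, and by 1.32 ± 0.13 (adjusted p = 1.99e-09) when AU-15330 was added to cisplatin. Atr had a median of 31.8 CPM (28.6 to 39.6) with DMSO, 54.3 (46.6 to 62.5) with AU-15330, 34.6 (28.1 to 38.6) with cisplatin and 49.6 (43.2 to 68.3) with both drugs. It was called higher with AU-15330 at 0.72 ± 0.11 (adjusted p = 1.1e-06), and its change with cisplatin was 0.05 ± 0.11 (adjusted p = 0.735).

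CHEK1 is the kinase that holds cycling cells in S and G2 phase after damage. Chek1 had a median of 3.65 CPM (2.97 to 4.20) with DMSO, 8.40 (7.44 to 13.8) with AU-15330, 18.3 (15.6 to 23.7) with cisplatin and 33.5 (28.9 to 37.7) with both drugs. The 4 groups were fully separate, in the same order as for Fancd2. Chek1 changed by 2.40 ± 0.14 (adjusted p = 3.6e-13) with cisplatin, by 1.39 ± 0.14 (adjusted p = 2.79e-09) with AU-15330 and by 0.79 ± 0.13 (adjusted p = 3.88e-06) for both against cisplatin. Chek2 had a median of 13.6 CPM (11.3 to 17.1) with DMSO, 15.6 (13.04 to 19.6) with AU-15330, 23.2 (21.3 to 29.9) with cisplatin and 36.6 (35.6 to 48.8) with both drugs. Its change was 0.81 ± 0.11 (adjusted p = 1.16e-06) with cisplatin and 0.16 ± 0.11 (adjusted p = 0.199) with AU-15330, and its cisplatin libraries lay above DMSO whereas its AU-15330 libraries overlapped DMSO. The Chek1 promoter, at chr9:36726609-36726908 on the minus strand, is shown with its E2F core in capitals, at bases +44 to +50 from the start.
Chek1 promoter: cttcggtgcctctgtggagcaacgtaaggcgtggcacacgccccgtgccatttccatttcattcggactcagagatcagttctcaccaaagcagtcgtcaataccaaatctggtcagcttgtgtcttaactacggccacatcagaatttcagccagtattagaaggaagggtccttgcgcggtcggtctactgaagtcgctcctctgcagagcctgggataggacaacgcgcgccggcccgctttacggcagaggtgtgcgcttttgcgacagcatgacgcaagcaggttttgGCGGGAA

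Of the 4 translesion genes cisplatin called 1 higher and 1 lower (25% each, near the 26% and 25.7% of all tested genes), AU-15330 called 1 lower (25%, against 37.2%), and both drugs against cisplatin called 2 higher and 1 lower (50% and 25%, against 35.4% and 32.7%). REV1 and the polymerase zeta subunits REV3L and MAD2L2 copy past crosslinks, and POLH inserts opposite platinated purines. Rev3l had a median of 119.8 CPM (79.5 to 186) with DMSO, 71.5 (55.02 to 76.1) with AU-15330, 118 (87.2 to 129) with cisplatin and 54.5 (36.3 to 58.4) with both drugs. Libraries with AU-15330 lay below those without it, in both settings. Rev3l was called lower with AU-15330 at -0.87 ± 0.16 (adjusted p = 2.42e-05) and for the combination against cisplatin at -1.13 ± 0.16 (adjusted p = 7.47e-07), and was at -0.16 ± 0.16 (adjusted p = 0.404) with cisplatin. Rev1 was called in no comparison, with medians of 42.3 to 45.4 CPM over the 4 groups, and 26.6% of its exon bases lie opposite Eif5b in GENCODE M21. Mad2l2 had a median of 37.8 CPM (31.1 to 44.9) with DMSO, 33.5 (30.9 to 41.3) with AU-15330, 28.3 (26.2 to 32.1) with cisplatin and 33.5 (32.8 to 40.96) with both drugs and was called lower with cisplatin at -0.40 ± 0.09 (adjusted p = 0.000747). Polh had a median of 32.1 CPM (27.9 to 44.98) with DMSO, 30.8 (28.6 to 33.4) with AU-15330, 42.02 (39.3 to 44.5) with cisplatin and 51.9 (47.5 to 55.1) with both drugs. It was called higher with cisplatin at 0.26 ± 0.09 (adjusted p = 0.021), a call lost without DMSO replicate 4 (0.20) or DMSO replicate 5 (0.22), without the filter (0.23) or with only the 2 groups fitted (0.25). For both drugs against cisplatin it was called at 0.30 ± 0.09 (adjusted p = 0.00541), where the groups did not overlap. Both Polh calls were lost without replicate 1 of every group, at 0.22 and 0.23.

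Nucleotide excision repair genes had small changes with cisplatin. Of 11 tested genes cisplatin called 2 higher and 3 lower, shares of 18.2% and 27.3% near the 26% and 25.7% of all tested genes. Under total-count scaling cisplatin called 4 higher and 2 lower, where it called 3977 higher and 2529 lower over all genes. AU-15330 called 2 higher and 7 lower, or 18.2% and 63.6% against 36.2% and 37.2% of all tested genes, but under total-count scaling it called 3 higher and 4 lower. Both drugs against cisplatin called 3 higher and 3 lower (27.3% each, against 35.4% and 32.7%). Of the higher calls, that of Ercc4, at 0.14 ± 0.06 (adjusted p = 0.0341), was lost without any 1 of cisplatin replicates 1 or 2, DMSO replicate 2 or combination replicates 2 to 5 or without replicate 1 of every group (0.11 to 0.14), with only the 2 groups fitted, without the filter, with DESeq2 size factors and in DESeq2's test, and that of Ercc5 (0.17) was lost without the filter (0.14). With cisplatin the genes called higher were Ddb2 and Ercc3, and the Ercc3 call, at 0.15 ± 0.05 (adjusted p = 0.0216), was lost without cisplatin replicate 1 (0.12) or DMSO replicate 6 (0.13), without the filter (0.13) or with only the 2 groups fitted (0.15). The absolute log2 change did not exceed 0.44 with cisplatin and 0.83 with AU-15330. DDB2 senses damage together with DDB1. Ddb2 had a median of 8.87 CPM (7.06 to 9.70) with DMSO, 4.91 (4.37 to 6.07) with AU-15330, 10.9 (8.45 to 11.7) with cisplatin and 5.61 (3.89 to 7.09) with both drugs. AU-15330 libraries lay below DMSO libraries, and the combination lay below cisplatin. It was called lower with AU-15330 at -0.78 ± 0.13 (adjusted p = 4.94e-06) and for both against cisplatin at -0.91 ± 0.12 (adjusted p = 4.62e-07). The cisplatin change was 0.30 ± 0.12 (adjusted p = 0.0414), and that call was lost when any 1 of DMSO replicates 2, 4 or 5, cisplatin replicates 1, 2, 4, 5 or 6, or combination replicate 6 was left out, with values of 0.27 to 0.31, or when the filter was dropped (0.28). Opposite Ddb2, 23.8% of exon bases are covered by Acp2.

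Xpc, the sensor of distorted helices, was called lower with cisplatin at -0.24 ± 0.08 (adjusted p = 0.0139) and with AU-15330 at -0.21 ± 0.08 (adjusted p = 0.02). The first call was lost without DMSO replicate 3 (-0.18) or under total-count scaling (-0.16), and the second under that scaling (-0.08) or without AU-15330 replicate 1 (-0.18), DMSO replicate 2 (-0.17) or DMSO replicate 3 (-0.17). Ddb1 was by far the most abundant member, with medians of 1141 to 1268 CPM, and was called lower with AU-15330 at -0.19 ± 0.07 (adjusted p = 0.0195), a call lost without DMSO replicate 2 (-0.15) or DMSO replicate 3 (-0.14), under total-count scaling (-0.06) or with only the 2 groups fitted (-0.19).

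ERCC8 and ERCC6 sense adducts at stalled RNA polymerase. Ercc8 had a median of 6.19 CPM (5.69 to 7.48) with DMSO, 3.75 (2.48 to 4.32) with AU-15330, 4.45 (4.20 to 5.51) with cisplatin and 4.32 (3.30 to 4.89) with both drugs. Every library with AU-15330, cisplatin or both lay below every DMSO library, and the 3 drug groups overlapped. Its change was -0.83 ± 0.13 (adjusted p = 4.11e-06) with AU-15330 and -0.44 ± 0.13 (adjusted p = 0.006) with cisplatin. Ercc6 was called in no comparison, at medians of 30.2 to 34.0 CPM. The helicases of TFIIH split. Ercc3 had a median of 60.4 CPM (57.6 to 66.5) with DMSO, 74.6 (69.9 to 79.6) with AU-15330, 67.1 (63.3 to 73.4) with cisplatin and 84.3 (77.96 to 93.05) with both drugs and was called higher with AU-15330 at 0.30 ± 0.05 (adjusted p = 1.9e-05), whereas Ercc2 had a median of 50.8 CPM (44.7 to 51.6) with DMSO, 37.4 (33.7 to 39.5) with AU-15330, 54.1 (46.99 to 62.5) with cisplatin and 38.6 (36.98 to 42.1) with both drugs and was called lower at -0.42 ± 0.07 (adjusted p = 5.52e-06). Ercc2 has 42.4% of its exon bases opposite Klc3 and Gm26852, the largest such share of any member.

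The incision nucleases split too. ERCC1 and ERCC4 (XPF) form a single enzyme that cuts 5′ of the adduct and also serves crosslink unhooking. Ercc1 had a median of 18.8 CPM (14.6 to 20.95) with DMSO, 14.3 (11.4 to 15.6) with AU-15330, 18.95 (17.5 to 21.9) with cisplatin and 13.3 (11.9 to 15.5) with both drugs, and Ercc4 had a median of 26.9 CPM (24.9 to 29.7) with DMSO, 34.4 (33.5 to 35.1) with AU-15330, 29.3 (26.2 to 30.8) with cisplatin and 32.5 (28.3 to 33.7) with both drugs. With AU-15330 Ercc1 was called lower at -0.40 ± 0.10 (adjusted p = 0.000945) and Ercc4 higher at 0.34 ± 0.06 (adjusted p = 1.05e-05), and neither was called with cisplatin, at 0.09 and 0.09. Ercc5 (XPG), which cuts on the other side, was called lower with cisplatin at -0.34 ± 0.06 (adjusted p = 2.89e-05) without overlap of the groups, and its AU-15330 change was 0.10 ± 0.06 (adjusted p = 0.12). Xpa, the factor that checks the lesion, was called lower with AU-15330 at -0.36 ± 0.13 (adjusted p = 0.013), a call lost without DMSO replicate 1 (-0.21) or under total-count scaling (-0.23). The promoters of Ercc8 and Ercc2 are shown to compare with those above. The Ercc8 window holds no E2F core and is printed without capitals, and in the Ercc2 window capitals mark the E2F core, at bases -92 to -86 from the start, which overlaps a CCAAT box. They lie at chr13:108158488-108158787 and chr7:19381767-19382066, both on the plus strand.
Ercc8 promoter: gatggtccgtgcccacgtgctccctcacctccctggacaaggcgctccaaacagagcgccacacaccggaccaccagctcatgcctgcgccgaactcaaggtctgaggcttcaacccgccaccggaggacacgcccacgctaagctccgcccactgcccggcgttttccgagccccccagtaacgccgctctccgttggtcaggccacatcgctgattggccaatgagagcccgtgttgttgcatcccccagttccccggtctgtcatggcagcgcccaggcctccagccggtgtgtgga
Ercc2 promoter: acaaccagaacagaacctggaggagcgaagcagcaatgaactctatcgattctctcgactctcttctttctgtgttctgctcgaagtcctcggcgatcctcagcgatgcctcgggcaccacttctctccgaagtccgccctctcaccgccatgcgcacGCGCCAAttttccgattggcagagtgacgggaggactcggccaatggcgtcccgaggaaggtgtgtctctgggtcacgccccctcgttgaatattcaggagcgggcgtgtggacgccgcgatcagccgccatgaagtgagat

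The E2F core was searched as TTGGCGC, as TTCCCGC, as TTCGCGC and lastly as TTGCCGC, on both strands, in windows of 250 bases before to 50 bases after RefSeq starts. Of the 47 members 36 matched, with 39 windows. The core was found in 19 of the 39 windows (48.7%), in 9.57% of all 32851 windows and in 16.4% of the 13027 windows of tested genes. It was in 10 of 17 windows of members called higher with cisplatin both without and with AU-15330, and in 8 of 20 windows of the other tested members. Over all tested genes the shares were 22.8% of 1423 windows and 15.6% of 11604. The Brip1, Atm, Rad51c, Ercc1, Ercc2, Ercc5 and Mad2l2 windows held a core outside the first set, and Fanca, Palb2, Xrcc3, Slx4, Polh and Rad51b had none within it. The cell cycle homology region was searched as TTTGAA or TTCGAA on both strands. It was found in 4 of 39 windows (10.3%), against 19.2% of all windows and 13.9% of the windows of tested genes. The CCAAT box was in 23 of 39 (59.0%), against 37.4% and 38.0%. Of the 22 E2F matches 3 overlap a CCAAT box. A match describes these letters in this window, not a bound site.

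**Figure D3:**
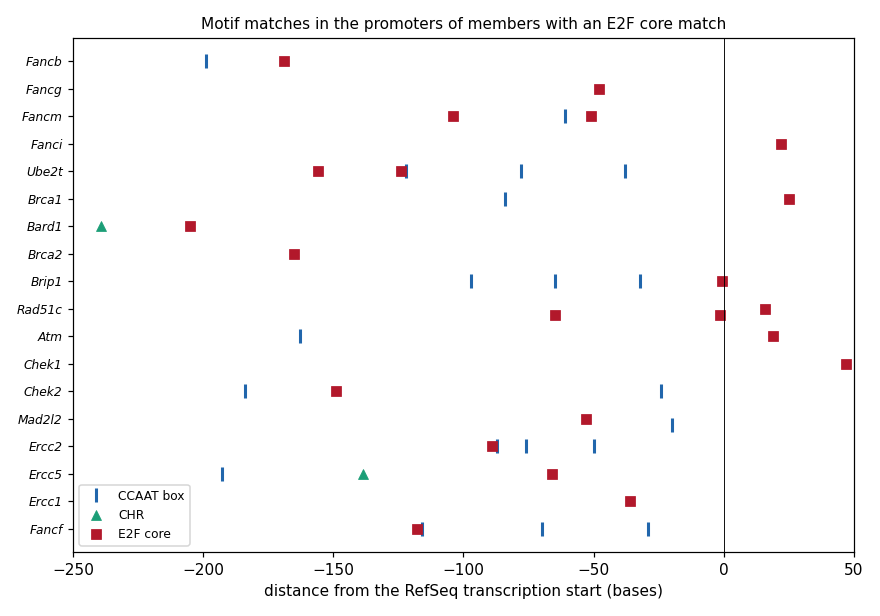
Positions of motif matches (x axis, bases from the RefSeq transcription start) in the promoter windows of the 18 members with an E2F core match. Red squares are E2F cores, blue bars CCAAT boxes and green triangles cell cycle homology regions, and a second window of a gene is drawn just under the first. The cores of Fanci, Brca1, Atm and Chek1 and the core in the first Rad51c window lie after the start, between bases +13 and +50.

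Whether AU-15330 altered the cisplatin effect was tested as an interaction, the cisplatin change with AU-15330 minus the cisplatin change without it. It was called below 0 for 8 members and above 0 for 6 (17.8% and 13.3%, together 31.1%), shares near the 15.8% and 17.9% of all tested genes (33.7% either way). Scaling to total counts gave 2506 genes below 0 and 1791 above over all genes, in place of 2048 and 2313. The members' median was -0.12. The 2 cisplatin effects come from separate libraries, and across the 45 members they correlated with a Pearson r of 0.83 and a Spearman rho of 0.84, against 0.41 and 0.36 across all 12941 tested genes. Genes are not independent replicates, and these values are descriptions. Cisplatin called 21 of 45 members higher in both settings (46.7%), where 11.2% of all tested genes were, and called 3 lower in both (6.67%, against 8.86% of all tested genes), Fancl, Rad51d and Ercc5.

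The members called below 0 included Brca1, Fancd2, Fanci, Brip1 and Chek1, whose cisplatin changes were large. Fanca, Ube2t, Fancb and Palb2, with cisplatin changes of 2.15, 1.67, 1.497 and 1.499, were not called. Their interactions were -0.39 ± 0.27, 0.07 ± 0.22, 0.04 ± 0.19 and -0.21 ± 0.16. That of Fanca lay within its error of the called values of Chek1 and Bard1 below. Brip1 had -2.31 ± 0.22 (adjusted p = 1.44e-08). It changed by 2.47 on cisplatin alone and was at 0.16 ± 0.15 (adjusted p = 0.403) when cisplatin was added to AU-15330. Brca1 had -1.36 ± 0.15 (adjusted p = 1.71e-07), Fancd2 -1.19 ± 0.25 (adjusted p = 0.000647) and Fanci -1.14 ± 0.24 (adjusted p = 0.000554), and these genes were still called higher on adding cisplatin to AU-15330, by 1.67, 1.82 and 1.63. Chek1 had -0.60 ± 0.19 (adjusted p = 0.017), Bard1 -0.55 ± 0.18 (adjusted p = 0.0218) and Xrcc2 -0.46 ± 0.16 (adjusted p = 0.0294). The Xrcc2 call was lost without DMSO replicate 4 (-0.39), combination replicate 3 (-0.42), combination replicate 4 (-0.42) or AU-15330 replicate 5 (-0.44), and the Bard1 call without replicate 1 of every group (-0.39). Rbbp8 had -1.29 ± 0.14 (adjusted p = 1.17e-07), with a cisplatin effect below 0 on AU-15330 and none called without it. In the proliferation list 16 of 29 genes were called below 0 and 1 above (55.2% and 3.45%, median -0.63), and its part in the members' interactions was not tested.

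Interactions above 0 were called in 4 roles, among them homologous recombination and the checkpoint kinases, which also held genes below 0. Chek2 had 0.50 ± 0.16 (adjusted p = 0.0154), Rad51c 0.58 ± 0.11 (adjusted p = 0.000259) and Polh 0.48 ± 0.13 (adjusted p = 0.00581), and all 3 were called higher when cisplatin was added to AU-15330. Ercc8 had 0.69 ± 0.19 (adjusted p = 0.00587) and was called lower with each drug alone. Mad2l2 had 0.41 ± 0.13 (adjusted p = 0.0165), a call lost without DMSO replicate 3 (0.34). Ddb1 had 0.28 ± 0.10 (adjusted p = 0.0367), and that call was lost when any 1 of DMSO replicates 2 or 3, AU-15330 replicates 2, 3 or 4, cisplatin replicates 1 or 2, or combination replicates 1, 5 or 6 was left out, with values of 0.21 to 0.27, and also with DESeq2 size factors (0.25), total counts (0.21) or no filter (0.26).

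**Figure D4:**
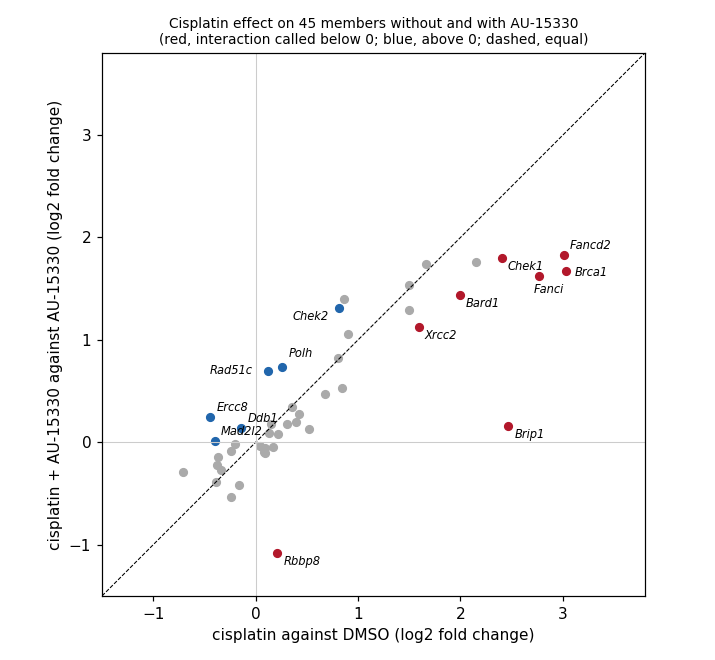
Cisplatin log2 fold change without AU-15330 (x axis) against that with AU-15330 (y axis) for the 45 tested members, each point a gene. Red points had an interaction called below 0, blue above 0 and grey not called, and the dashed line marks equal effects. Brip1 lies farthest below the line, followed by Brca1 and Rbbp8.

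Related repair genes outside the member list were counted in the same comparisons, where 26% and 25.7% of all tested genes were called higher and lower with cisplatin, 36.2% and 37.2% with AU-15330, and 35.4% and 32.7% for both drugs against cisplatin. Of 36 further crosslink and recombination genes, cisplatin called 23 higher and 6 lower (63.9% and 16.7%), AU-15330 22 and 3 (61.1% and 8.33%), and both drugs against cisplatin 23 and 3 (63.9% and 8.33%). Of 18 checkpoint partners 14 were called higher and 1 lower with cisplatin (77.8% and 5.56%), 12 and 4 with AU-15330 (66.7% and 22.2%), and 11 and 3 for both against cisplatin (61.1% and 16.7%). The 23 further excision and transcription-coupled repair genes were near the background with cisplatin, with 6 called higher and 6 lower (26.1% each). With AU-15330 they had 7 higher and 6 lower (30.4% and 26.1%) and a median of 0.05 where the excision repair members had -0.21, and for both against cisplatin 12 and 2 (52.2% and 8.7%), with medians of 0.19 and -0.10. Mismatch repair genes were called 3 higher and 1 lower of 7 with cisplatin (42.9% and 14.3%) and 2 and 4 with AU-15330 (28.6% and 57.1%), and end joining genes 1 and 3 of 13 with cisplatin (7.69% and 23.1%) and 6 and 4 with AU-15330 (46.2% and 30.8%). No difference between lists was tested.

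**Figure D5:**
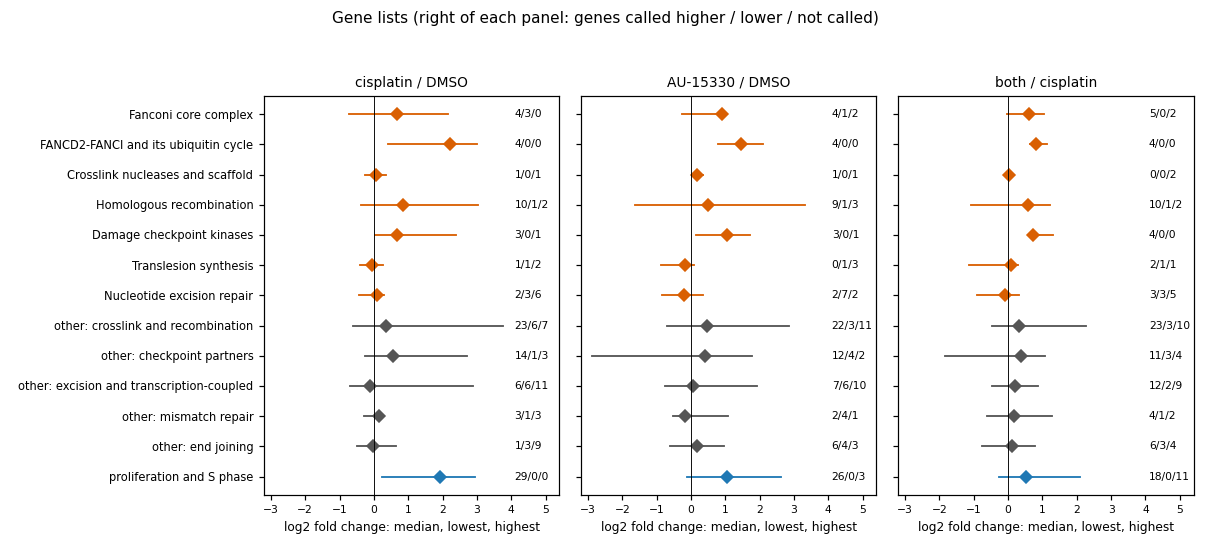
Median log2 fold change (diamonds, x axis) with the lowest and highest gene (lines) for the 7 member roles (orange), 5 lists of related repair genes (grey) and the proliferation list (blue) in 3 comparisons. Numbers at the right of each panel count genes called higher, lower and not called. The proliferation list and the FANCD2-FANCI cycle have the highest medians with cisplatin, 1.93 and 2.22.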

How the data were processed

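For 24 samples of ID8 P53 KO cells, poly(A) libraries were made with a directional kit and sequenced from single ends. The submitters' processing notes name STAR 2.7.1a, the mm10 build and DESeq2 1.36.0. The tool that counted reads, its annotation and its strand setting are not given in the sources used here. The authors deposited raw counts per gene symbol, with 48 columns for 24 libraries on 2 lanes each, and all 48 columns were used. Lanes were summed. Libraries were grouped by the treatment in their labels.

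In R 4.3.3, genes were filtered with filterByExpr, scaled with TMM and fitted with edgeR 4.0.16 (quasi-likelihood F test, all 24 libraries, 4 group means, 20 residual degrees of freedom). The 4 comparisons between groups and the interaction were tested, and p-values were adjusted by the Benjamini-Hochberg method over 12941 genes, with a threshold of 0.05. TMM assumes that most genes do not change, and total counts were tried in its place. Standard errors are those of the log2 fold change in that fit. Totals of 17592588 to 25260009 counts set the precision, and floors cover counting error only. No replicate pair was alike within sampling noise: chi-square per degree of freedom was 2.30 to 122 between libraries of a group and 1.36 to 1.46 between lanes.

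The members, their roles, the other lists and the promoter patterns were chosen with earlier results of these data known. Every member was accounted for, and the full values went to the called member with the largest rise and fall in each role and to members that showed how a role was divided, the latter chosen after their values were seen. Exon overlap came from GENCODE M21 and promoter sequences from RefSeq (GRCm38.p6), and 36 of 47 members had a promoter. Alternatives were DESeq2 1.42.0 (its size factors in edgeR, and its Wald test), total counts, no filter beyond 1 count, only the 2 groups compared, a block for replicate number, a fold change over 1.5, each library left out in turn, and replicate 1 left out of every group. In a test on data simulated for cisplatin against DMSO, run on 12298 genes, 173 of 193 tested changed genes were called and 3.89% of calls were false. The simulation changed only 200 genes, each by about 1.5-fold or more. Its libraries were drawn independently, with no shift shared between replicates. Far more genes were called in the real data, so 3.89% is not an error rate for the real comparisons.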

Additional observations from a re-analysis of the deposited data

Results flagged for a closer look

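Among 180 groups of 6 libraries (45 members in 4 groups), 12 held a library whose gap to its nearest neighbour took an unusually large share of the group's range (Dixon's ratio). Chance gives about 1 in 20 groups, or 9. Replicate 1 was the library in 9 of them and replicate 2 in 3. Usp1 stood apart in replicate 1 of 3 groups, low with DMSO at 35.8 CPM (ratio 0.643) and high with AU-15330 at 95.9 (0.731) and cisplatin at 75.1 (0.626). Replicate 1 was also high with AU-15330 for Ube2t (14.2 CPM, ratio 0.633) and Mad2l2 (41.3, ratio 0.63), and low for Fan1 (11.9, ratio 0.649). With both drugs replicate 1 was high for Chek2 (48.8 CPM, ratio 0.738) and Mad2l2 (41.0, ratio 0.784) and low for Rbbp8 (186, ratio 0.661). Replicate 2 was low for Fancm with cisplatin (14.5 CPM, ratio 0.846) and for Xrcc3 with AU-15330 (3.17, ratio 0.658), and high for Palb2 with AU-15330 (5.02, ratio 0.76).

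The cisplatin effect differed between cells without and with AU-15330, by edgeR's test of the interaction, for 14 of 45 members, or 31.1%, which is no more than the 33.7% of all tested genes. On the log2 scale the interaction was -2.31 for Brip1, -1.36 for Brca1, -1.29 for Rbbp8, -1.19 for Fancd2, -1.14 for Fanci, -0.60 for Chek1, -0.55 for Bard1 and -0.46 for Xrcc2. It was 0.69 for Ercc8, 0.58 for Rad51c, 0.50 for Chek2, 0.48 for Polh, 0.41 for Mad2l2 and 0.28 for Ddb1.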

How the results depend on the processing

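No called member change turned its sign under any alternative, and members' counts of calls stayed within 1.5 times of those reported except under 2 settings. With a fold change over 1.5 also required, cisplatin against DMSO called 18 members (1 lower), AU-15330 against DMSO 20 (4 lower), both drugs against cisplatin 3 lower, both drugs against AU-15330 17 (1 lower) and the interaction 7 (1 above 0). Over all genes that requirement left 3052, 5913, 5149, 2035 and 2507 calls in these 5 comparisons, in place of 6689, 9497, 8813, 5394 and 4361. Under total counts AU-15330 called 6 members lower in place of 10. With 1 library left out, members called ranged from 30 to 34, 32 to 34, 31 to 33, 26 to 29 and 12 to 16, and without replicate 1 of every group they were 31, 34, 30, 27 and 15. Over all genes the calls with 1 library left out ranged from 6270 to 6814, 9311 to 9629, 8558 to 9090, 4748 to 5735 and 3984 to 4732. Without replicate 1 of every group the calls over all genes were 6826, 9685, 8958, 5623 and 4627. For both drugs against cisplatin the Xrcc3 call (0.27) was lost without any 1 of cisplatin replicates 1 or 2 or combination replicates 2 or 5, without replicate 1 of every group, without the filter and with either use of DESeq2 (0.20 to 0.26). For both drugs against AU-15330 Rad50 (0.19) was lost without any 1 of AU-15330 replicates 1, 2 or 3 or combination replicates 2, 3 or 4 (0.16 to 0.19). Rev3l (-0.42) was lost without any 1 of AU-15330 replicates 3 to 6 or combination replicates 1 or 6 (-0.42 to -0.34). Fancl (-0.39) was lost without AU-15330 replicate 1 or any 1 of combination replicates 2 to 4 (-0.37 to -0.31). Without the filter Rad50 (0.16), Usp1 (0.23) and Ercc3 (0.14) were lost in that comparison, and Ercc3 also without replicate 1 of every group (0.12).

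With replicate number as a block, members called were 34, 33, 33, 29 and 15 in the 5 comparisons, and no call was lost. The shares over all genes under that setting are not given here, so these counts describe only how stable the member calls were. The labels tie the numbers to no shared culture or day. Same-numbered libraries deviated together in part, with a mean r of 0.192 (26 of 36 pairs over 0.1) against -0.034 for different numbers (43 of 180), and 11 of 24 libraries correlated best with their own number, a hint from the data and not from the design. The fit with only the 2 groups compared was not run for the interaction, which needs 4.

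Genes near the floor are limited by depth, and the cause of lost calls was not tested.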

Other observations

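The lists examined beside the members also held p53 targets, in cells labelled as P53 KO. Of 16 tested, cisplatin called 3 higher and 7 lower (18.8% and 43.8%, against 26% and 25.7% of all tested genes). The shares with AU-15330, 6 higher and 7 lower (37.5% and 43.8%), were near the 36.2% and 37.2% of all tested genes, and both drugs against cisplatin called 7 higher and 6 lower (43.8% and 37.5%, against 35.4% and 32.7%). Cdkn1a, the CDK inhibitor p21, changed by -1.504 ± 0.18 with cisplatin (adjusted p = 1.09e-07, edgeR) and by more with AU-15330, at -3.94. It had the lowest value of the list in both comparisons. The list's medians were -0.19 with cisplatin and -0.02 with AU-15330, and its highest values were 2.97 and 1.12.

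Among repair genes outside the member list, the largest cisplatin changes were those of Eme1, a subunit of a structure-specific nuclease, at 3.77 ± 0.19 (adjusted p = 1.86e-14), Rmi2, a part of the dissolvase complex, at 3.53 ± 0.29 (adjusted p = 2.21e-10) and Polq, the polymerase of theta-mediated end joining, at 3.42 ± 0.19 (adjusted p = 5.29e-14). They were chosen after their values were seen. Each was counted above among the further crosslink and recombination genes, so Polq is not in the end joining list. Eme1 had a median of 1.38 CPM (0.761 to 1.79) with DMSO, 4.19 (3.50 to 7.43) with AU-15330, 18.7 (14.8 to 22.97) with cisplatin and 18.8 (17.9 to 25.3) with both drugs. Each drug group lay above DMSO, and the 2 cisplatin groups overlapped.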
